A study of Homo sapiens with 3 samples.

Results

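Among 334 lncRNA transcripts listed for a FAK RNA immunoprecipitation sequencing (RIP-seq) experiment, 9 lie at 7 pseudogene loci and are described here. They were taken by their position on a named pseudogene: MSTRG.10001.1, MSTRG.10002.1 and MSTRG.10003.1 on HERC2P3, and 1 transcript each on NBEAP1 (MSTRG.10004.1), WHAMMP1 (MSTRG.10099.1), PPIP5K1P1 (MSTRG.10269.1), UBE2Q2P2 (MSTRG.10854.1), ENPP7P4 (MSTRG.22830.1) and STAG3L5P-PVRIG2P-PILRB (MSTRG.28743.1). MDA-MB-231 is an established p53-mutant line of human triple negative breast cancer, and all libraries came from such cells expressing Flag-tagged FAK after plasmid transfection. RNA was retrieved with an anti-FLAG antibody (Flag-FAK) or with normal mouse IgG (IgG), and the Input library held 10% of the RNA before retrieval. The comparison of the precipitates asks which RNAs were recovered with FAK, a kinase of focal adhesions, and not with the control antibody. With 1 library per condition nothing below could be checked against replicates, and no p-value is given.

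A pseudogene is a copy of a gene that has lost the ability to make the full protein, by disabling mutations or because parts of the gene are missing. Many pseudogenes arose when large segments of a chromosome were duplicated, and some are still transcribed into RNA that closely resembles part of the parent mRNA. The HERC2 copies on chromosome 15 are a well-known case, since these duplicated blocks flank the region that is lost in Prader-Willi and Angelman syndromes. RNA from a pseudogene is counted with some uncertainty: a read from the parent gene or another copy can match the pseudogene as well, and how such reads were assigned is not given in the sources used here. The parent genes are protein-coding and were not analysed here.

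The positions bore out the locus names, with 1 qualification. RefSeq types HERC2P3, NBEAP1, WHAMMP1 and UBE2Q2P2 as transcribed pseudogenes and PPIP5K1P1 and ENPP7P4 as pseudogenes, and the 8 transcripts there overlap them. MSTRG.28743.1 lies on the readthrough gene STAG3L5P-PVRIG2P-PILRB, which RefSeq types as lncRNA, and it falls between the pseudogene parts of that gene, 8499 bases past the end of STAG3L5P and 907 bases before PVRIG2P, without overlapping either. Of the 8 transcripts listed on chromosome 15, 7 belong to this group. A database name was given for 7 members, while MSTRG.10002.1 and MSTRG.10269.1 have only an assembly identifier. Of the 9 transcripts 7 lie on the minus strand and 2 on the plus strand. The RefSeq table used here gives no strand, and it was not stated whether counting used strand, so sense and antisense RNA of a pseudogene cannot be told apart.

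For 1 member the study designed RT-qPCR primers under the same database name, lnc-ALG1L-2:2, which is MSTRG.22830.1 at ENPP7P4. The study also ran RIP with RT-qPCR on its top-ranked lncRNAs in triple negative breast cancer cells. Whether lnc-ALG1L-2:2 was among these is not stated in its text. They are shown, 5′ to 3′ and in lower case throughout, because they are the bases by which this RNA can be measured apart from sequencing. Each primer has 20 bases, of which 11 are G or C. Their place within the transcript was not analysed here. The study also lists primers under names such as Lnc-PILRB-1 and Lnc-GOLGA6L6-10, which match no name in the deposited tables, and whether they amplify a member was not analysed here.
lnc-ALG1L-2:2 sense: tcaagcagcaaccctaggac
lnc-ALG1L-2:2 antisense: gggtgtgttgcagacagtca

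The reads on all 334 transcripts summed to between 48763 (Flag-FAK) and 2056854 (Input), and most were ribosomal. Without the transcripts of ribosomal DNA and 7SK, the Flag-FAK library kept 1351 reads, IgG 3669 and Input 13782. Of these, the 9 pseudogene-locus transcripts held 72 in Input and 13 in IgG, and 18 in Flag-FAK. That is 0.522% of the Input reads (exact 95% Clopper-Pearson interval 0.409 to 0.657), 0.354% of the IgG reads (0.189 to 0.605) and 1.33% of the Flag-FAK reads (0.791 to 2.10). The share was highest in Flag-FAK, where MSTRG.10001.1 and MSTRG.28743.1 held 15 of the 18 reads. The other 7 members took 0.486% of Input (0.377 to 0.617), 0.354% of IgG (0.189 to 0.605) and 0.222% of Flag-FAK (0.0458 to 0.648), a description only, since leaving out the members with most Flag-FAK reads lowers that share by construction. As a ratio of summed FPKM, Flag-FAK over IgG was 2.04 for the 9 members (0.945 to 4.53), an interval that contains 1 on the FPKM scale. Equal FPKM totals over the 334 transcripts would multiply this ratio by 2.29, and the interval would then lie above 1. The library totals hold MSTRG.19865.1 on a ribosomal RNA pseudogene, with 1086 reads in IgG, 345 in Flag-FAK and 0 in Input. With it left out too, a choice made after seeing the data, the 9 members took 0.503% of IgG (0.268 to 0.859), level with Input, and 1.79% of Flag-FAK (1.06 to 2.81). Intervals treat reads as independent and address counting error only. PCR copies are not independent molecules, so the intervals may be too narrow. Fewer RNA molecules cannot be told apart from poorer recovery of a transcript in these libraries.

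**Figure D1:**
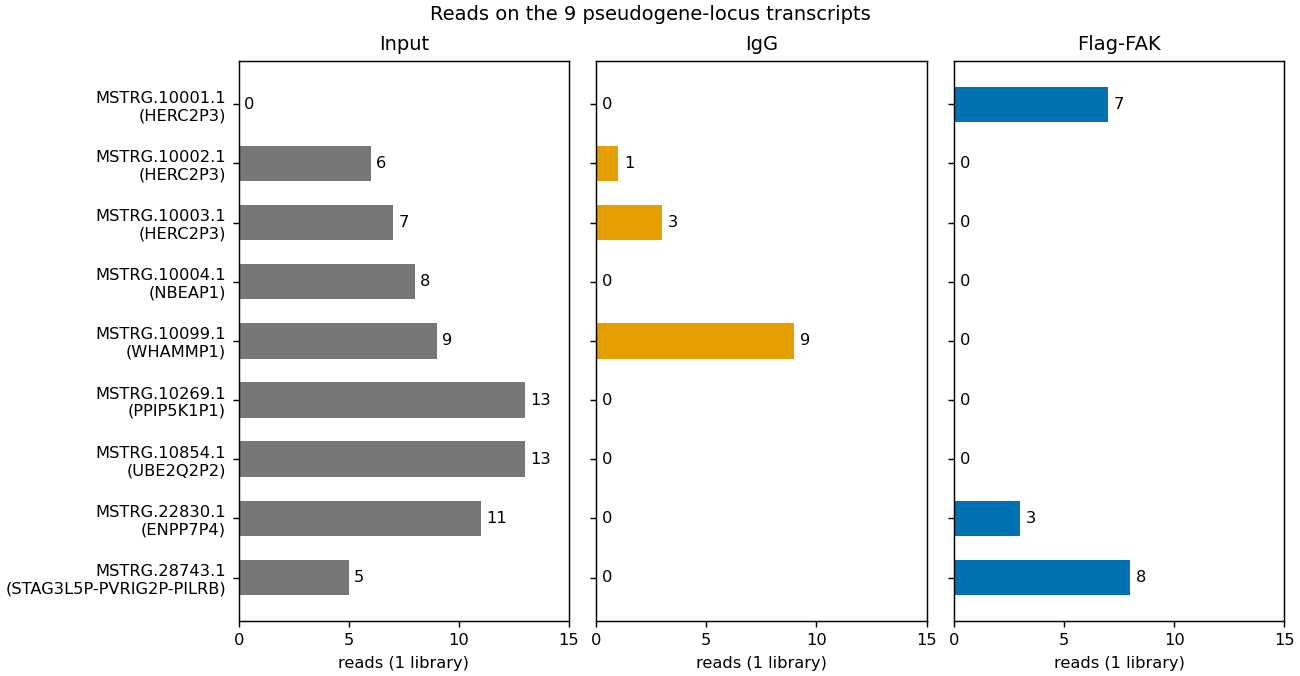
Reads on each of the 9 pseudogene-locus transcripts (rows) in Input, IgG and Flag-FAK (panels, 1 library each, horizontal axis in reads). Input has reads on 8 rows, while IgG and Flag-FAK have reads on 3 rows each, and no row has reads in both precipitates.

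Values below are reads and FPKM, a level corrected for transcript length and library size. In Input 8 of the 9 transcripts had reads, with levels from 1.83 to 4.78 FPKM. IgG had reads on 3 members and Flag-FAK on 3 others, so that 3 were at 0 reads in both precipitates and 0 had reads in both. Among all 334 transcripts Flag-FAK detected 67, IgG 150 and Input 291, and 45 were found in both precipitates. Reads in Input alone were found for 157 of the 334, as for the 3 members at 0 reads in both precipitates. Levels of the members with reads ran from 0.281 to 2.01 FPKM in IgG and from 0.396 to 3.87 FPKM in Flag-FAK.

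HERC2P3 derives from HERC2, a large ubiquitin ligase of the DNA damage response. Its 3 transcripts are on the minus strand of chromosome 15 (GRCh38) and do not overlap. MSTRG.10001.1, named NONHSAT040637.2, runs from 20446026 to 20453449. MSTRG.10002.1 runs from 20453619 to 20453952 and starts 169 bases past it, and MSTRG.10003.1, named NONHSAT040639.2, runs from 20462958 to 20483507 after a gap of 9005 bases. Together they extend over 37.5 kb inside the 97785 bases of the RefSeq gene. By the definition of FPKM, the Input reads needed for 1 FPKM scale with the counted length of a transcript. This length of MSTRG.10003.1 was 1.19 times that of MSTRG.10002.1, although its span was 61.5 times as long. The 1.19 is rough, as it rests on 7 and 6 Input reads. In IgG, with 3 reads and 1 read, the order was reversed, at 3.06 and 3.56 reads per FPKM.

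The 3 neighbours differed in where their reads were found. MSTRG.10001.1 was at 0 reads in both Input and IgG, whereas Flag-FAK held 7 (2.41 FPKM). MSTRG.10002.1 had 6 reads in Input (2.21 FPKM), 1 in IgG (0.281 FPKM) and 0 in Flag-FAK. MSTRG.10003.1 had 7 reads in Input (2.16 FPKM), 3 in IgG (0.979 FPKM) and 0 in Flag-FAK. The transcript with reads in Flag-FAK was thus the one without reads in the other libraries, and the reverse held for both neighbours. MSTRG.10001.1 was 1 of 5 among the 334 transcripts with reads in Flag-FAK and 0 reads in the other libraries. Such a transcript passes any minimum level through Flag-FAK alone, so it can only appear as higher there.

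Against a floor of 3 reads for the library at 0, and with its own 7 reads taken as measured, MSTRG.10001.1 was at least 2.27-fold higher in Flag-FAK than in IgG and at least 2.42-fold higher than in Input. The exact counting interval of the ratio also covers the error of the 7 reads and so begins lower, at 1.40-fold against IgG and at 1.50-fold against Input, with no upper end. Folds beside a count of 0 are given below in both ways, at this floor and at the near end of the interval. For MSTRG.10002.1 and MSTRG.10003.1 no fold between the precipitates is given, as both libraries were at or under 3 reads. Their intervals, from 0 to 38.0 and from 0 to 2.36, both contain 1. Against Input and at the floor, Flag-FAK was at least 1.92-fold lower for MSTRG.10002.1 (interval from 1.13-fold) and at least 2.25-fold lower for MSTRG.10003.1 (interval from 1.39-fold).

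Summed over the pseudogene, HERC2P3 counted 13 reads in the Input (4.37 FPKM), 4 in IgG (1.26 FPKM) and 7 in Flag-FAK (2.41 FPKM). The summed ratio of Flag-FAK to IgG was 1.92 with a counting interval of 0.433 to 7.94. On the FPKM scale a difference between the precipitates was thus not detectable for the locus at this depth. Equal FPKM totals would multiply this ratio by 2.29, and the interval would still contain 1. With totals outside the ribosomal DNA and 7SK transcripts the factor is 2.71, and the interval would lie above 1. On the log2 scale with 0.1 FPKM added to both values, the summed ratio of Flag-FAK to IgG was 0.89. The ratio of Flag-FAK to Input was 0.553 (0.187 to 1.49), and that of IgG to Input 0.289 (0.0787 to 1.07). Both of these intervals also contain 1. With TPM, which sets the sum of the 334 transcripts to 1000000 in each library, the log2 ratio to Input changed from -0.83 to 2.95 for Flag-FAK and from -1.72 to 0.82 for IgG, so the direction against Input depends on the scaling. TPM multiplies ratios to Input by 14.1 for Flag-FAK and by 6.14 for IgG. These factors exceed every fold below Input given here beside a count of 0, so those bounds hold on the FPKM scale only.

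**Figure D2:**
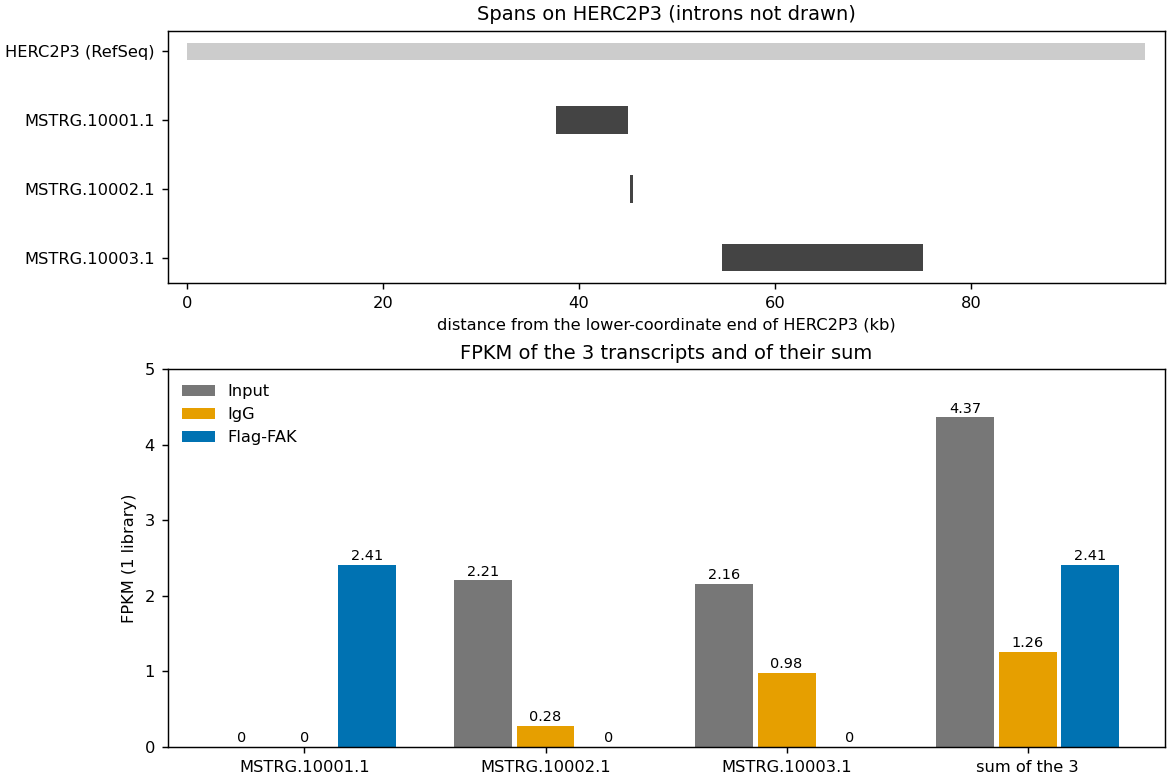
Upper panel, the spans of the 3 HERC2P3 transcripts along the RefSeq pseudogene, in kb from its lower-coordinate end. Lower panel, FPKM of each transcript and of their sum in Input, IgG and Flag-FAK (bars, 1 library each); Flag-FAK has 2.41 FPKM on MSTRG.10001.1 and 0 on both neighbours, while the sums are 4.37, 1.26 and 2.41.

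UBE2Q2P2 derives from UBE2Q2, a ubiquitin-conjugating enzyme, and so belongs with HERC2P3 to the ubiquitin pathway by its parent. MSTRG.10854.1, named NONHSAT171097.1, occupies bases 82404728 to 82414767 of chromosome 15 on the plus strand and ends 844 bases before the end of the RefSeq gene. It had 13 reads in Input and 0 reads in IgG and in Flag-FAK. Its Input level of 4.78 FPKM was the highest among the 9 transcripts and ranked 68 of the 291 with reads there. At the floor, Flag-FAK was at least 4.17-fold lower than Input (interval from 2.93-fold) and IgG at least 4.03-fold lower (interval from 2.83-fold). Between the precipitates there is no value to compare.

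WHAMMP1 and NBEAP1 derive from genes of membrane traffic. WHAMM is an actin nucleation factor acting on membranes between the endoplasmic reticulum and the Golgi apparatus, and NBEA (neurobeachin) is a scaffold protein of membrane trafficking in neurons. MSTRG.10099.1 spans bases 32528532 to 32533370 of chromosome 15, minus strand, within WHAMMP1. It had 9 reads in Input (1.83 FPKM), 9 in IgG (2.01 FPKM) and 0 in Flag-FAK. IgG and Input had equal reads, with an FPKM ratio of 1.10 and an interval of 0.387 to 3.13. The log2 ratio with 0.1 added was 0.13, and 2.74 with TPM. At the floor, Flag-FAK was at least 3.08-fold lower than IgG (interval from 2.03-fold) and at least 2.89-fold lower than Input (interval from 1.90-fold). It held 9 of the 13 reads of all members in IgG.

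MSTRG.10004.1 is listed under the Ensembl transcript name ENST00000564214.1 and spans bases 20735843 to 20756130 of chromosome 15, minus strand. Its higher-coordinate end is 21 bases inside that of NBEAP1 in RefSeq. It had 8 reads in Input (3.01 FPKM) and 0 in both precipitates. At the floor, Flag-FAK was at least 2.57-fold lower than Input and IgG at least 2.48-fold lower, with intervals from 1.64-fold and 1.59-fold. NBEAP1, formerly BCL8, is known from chromosome translocations in B-cell lymphoma.

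PPIP5K1P1 and ENPP7P4 derive from enzymes of phosphate and lipid metabolism. PPIP5K1 makes inositol pyrophosphates, and ENPP7 is an alkaline sphingomyelinase of the gut. MSTRG.10269.1 spans bases 43683241 to 43684455 of chromosome 15, minus strand, where RefSeq also places the readthrough pseudogene PPIP5K1P1-CATSPER2. It had 13 reads in Input (2.91 FPKM) and 0 in IgG and Flag-FAK. As with UBE2Q2P2, at the floor Flag-FAK was at least 4.17-fold and IgG at least 4.03-fold lower than Input, with intervals from 2.93-fold and 2.83-fold.

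MSTRG.22830.1, or lnc-ALG1L-2:2, spans bases 125889043 to 125889808 of chromosome 3, minus strand, and the primers printed above carry its name. It had 11 reads in Input (1.84 FPKM), 0 in IgG and 3 in Flag-FAK (0.396 FPKM). With 3 reads against 0 no fold is given for the precipitates, and the interval of their ratio, from 0.403 with no upper end, contains 1. At the floor, IgG was at least 3.41-fold lower than Input (interval from 2.33-fold). The ratio of Flag-FAK to Input was 0.215 with an interval of 0.0508 to 1.07. On the log2 scale with 0.1 added it was -1.97, but 1.59 with TPM, so this direction too depends on the scaling.

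STAG3L5P-PVRIG2P-PILRB joins copies of STAG3, a cohesin subunit of meiosis, and PVRIG, an inhibitory receptor of lymphocytes, to PILRB, an activating receptor of myeloid cells. MSTRG.28743.1, named NONHSAT122358.2, spans bases 100349828 to 100351410 of chromosome 7, plus strand. It had 5 reads in Input (2.11 FPKM), 0 in IgG and 8 in Flag-FAK (3.87 FPKM). It was the highest of the 9 in Flag-FAK, where it ranked 16 of the 67 transcripts with reads, and it ranked 227 of 291 in Input. Its level in Flag-FAK was at least 2.60-fold that in IgG at the floor, with an interval from 1.66-fold. Against Input the ratio was 1.83 with an interval of 0.529 to 7.12, so the precipitate was not distinguishable from Input on the FPKM scale. The log2 ratio with 0.1 added was 0.84, and 4.68 with TPM. The ratio of IgG to Input had an interval from 0 to 1.17, which also contains 1.

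The only other listed transcript within 100 kb of a member was MSTRG.28736.1 on PMS2P1, a copy of the mismatch repair gene PMS2. It lies 19.3 kb from MSTRG.28743.1 on the same strand, from 100328975 to 100330526. It had 5 reads in Input (1.99 FPKM) and 0 in both precipitates. Both neighbours were therefore at 5 reads in Input, and only MSTRG.28743.1 had reads in Flag-FAK.

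The same fold was applied to all transcripts to show how common such ratios were. A ratio of (FPKM + 0.1) values above 2 or below 0.5 was counted where either library of the pair reached 0.5 FPKM. Between Flag-FAK and IgG, 4 members met the minimum, of which MSTRG.10001.1 and MSTRG.28743.1 were above 2-fold, and MSTRG.10003.1 and MSTRG.10099.1 below 0.5-fold. Of all 135 transcripts counted, 14.1% were above and 77.0% below. Counting only intervals that lay wholly beyond the fold left 0 members above and 1 below, MSTRG.10099.1, against 2.96% above and 31.1% below among all 135. These calls hold on the FPKM scale only. TPM multiplies Flag-FAK over IgG by 2.29, and the interval of MSTRG.10099.1 begins at only 2.03-fold lower. With TPM this interval would therefore contain 1. The same factor would put the intervals of MSTRG.10001.1 and MSTRG.28743.1, which begin at 1.40-fold and 1.66-fold higher, wholly above 2-fold. Each of the 4 members met the minimum only through the precipitate where it had reads, so its ratio could fall only on that side. With 4 members counted, their split is a description of these transcripts only.

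Between Flag-FAK and Input all 9 members met the minimum, with 1 above 2-fold (MSTRG.10001.1) and 7 below 0.5-fold, against 5.33% above and 92.7% below among 300 transcripts. Between IgG and Input 8 members met it, with 0 above and 7 below, against 13.4% and 78.8% of 321 transcripts. The majority of members below Input was therefore also that of the whole list. TPM multiplied the ratios to Input by 14.1 for Flag-FAK and by 6.14 for IgG before the 0.1 was added. With TPM 3 members were above and 6 below in Flag-FAK over Input, against 12.0% above and 80.0% below of all transcripts counted. In IgG over Input 2 members were above and 5 below, against 26.2% and 59.8%.

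**Figure D3:**
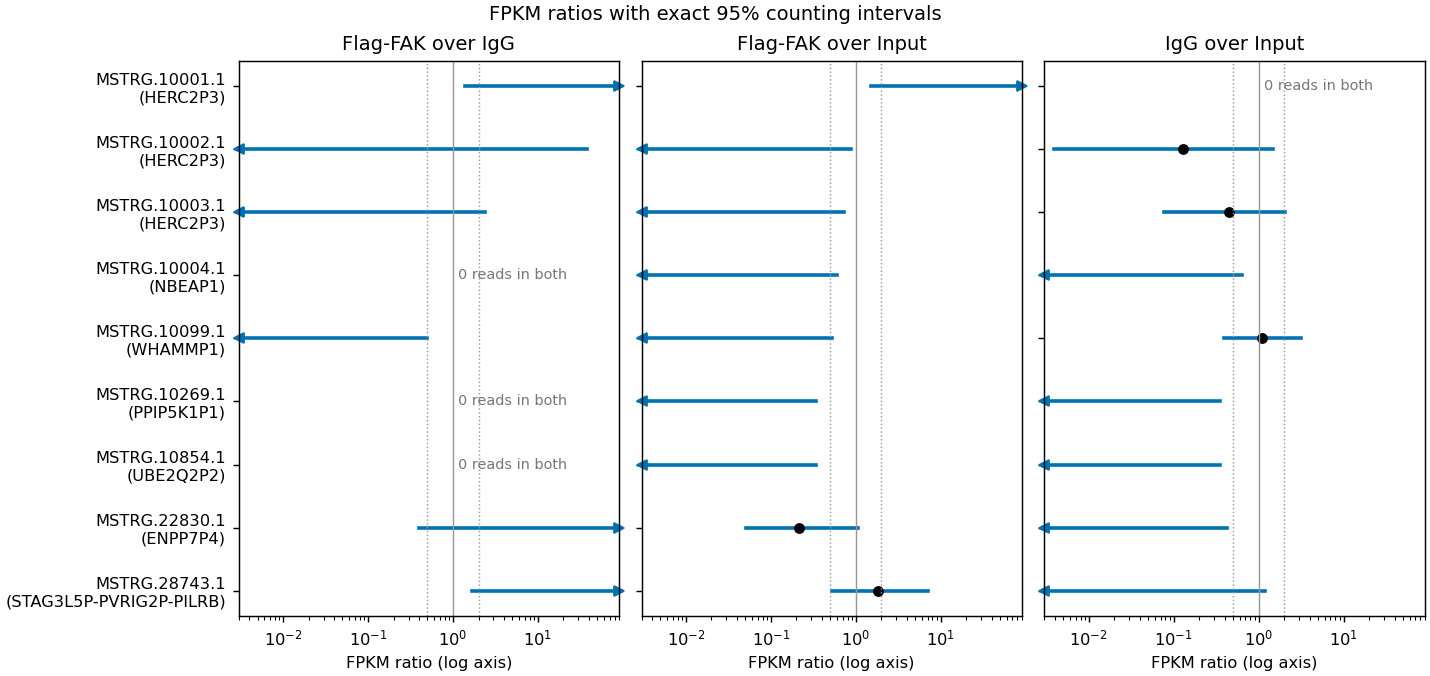
FPKM ratios of each pseudogene-locus transcript for the 3 pairs of libraries, on a log axis, with lines for exact 95% counting intervals, arrowheads for intervals that run to 0 or have no upper end, and dots for ratios with reads in both libraries. Solid and dotted vertical lines mark ratios of 1, 2 and 0.5; in Flag-FAK over IgG the intervals of MSTRG.10001.1 and MSTRG.28743.1 begin at 1.40 and 1.66 and that of MSTRG.10099.1 ends at 0.494.

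Coding potential was deposited as 3 measures: the CPC and CNCI scores, for which values under 0 stand for non-coding sequence, and the CPAT coding probability as a fraction. All 334 transcripts were under 0 in CPC and CNCI, the 9 members included. As the list was deposited as lncRNAs, this may follow from how it was selected and is not a finding about the members. The median CPC score of the members was -0.925, against -1.02 over all transcripts, and the median CNCI score was -0.0676 against -0.0492. The median coding probability was 0.0181 for the members and 0.0270 for all. On each measure the members' median lay between the lower and upper quartile of all transcripts.

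Within the group the scores spread widely. MSTRG.22830.1 at ENPP7P4 had the highest CPC score (-0.342) and the highest coding probability (0.315) of the 9, ranking 23 and 8 of the 334. PPIP5K1P1 and NBEAP1 followed in coding probability with 0.247 and 0.234, and WHAMMP1 was lowest with 0.000385. The 3 HERC2P3 transcripts differed as well: MSTRG.10001.1 had a CPC score of -0.712 and a coding probability of 0.0765, MSTRG.10002.1 had -0.901 and 0.00339, and MSTRG.10003.1 had -0.945 and 0.0177. The transcript with reads in Flag-FAK thus had the highest CPC score and coding probability of the pseudogene. Its CNCI score of -0.156, however, was the lowest of the 3, where MSTRG.10002.1 had -0.00041 and MSTRG.10003.1 had -0.0119. The measures do not order these transcripts alike.

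**Figure D4:**
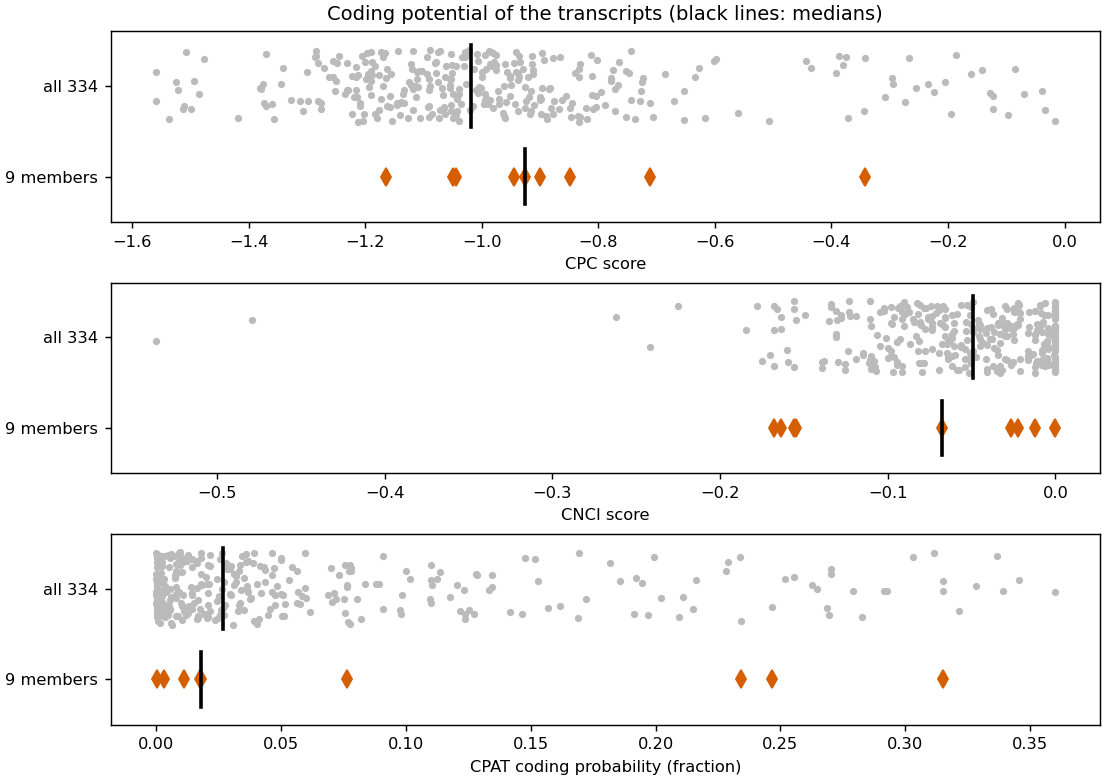
CPC score, CNCI score and CPAT coding probability (panels, horizontal axes) of the 9 members (diamonds) and of all 334 transcripts (grey points, scattered vertically for display only). Black lines mark the medians, -0.925 and -1.02 for CPC, -0.0676 and -0.0492 for CNCI, and 0.0181 and 0.0270 for CPAT.

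The deposited tables also list, for each transcript, genes predicted as its targets, either cis (near it) or trans (elsewhere). The parent gene was among the listed trans targets of all 3 HERC2P3 transcripts (HERC2), of WHAMMP1 (WHAMM) and of PPIP5K1P1 (PPIP5K1), and it was not listed for NBEAP1, UBE2Q2P2 or ENPP7P4. PILRB was a listed target of MSTRG.28743.1. HERC2 lies 7.63 to 7.66 Mb from the HERC2P3 transcripts on the same chromosome and was listed for 5 transcripts in all. The numbers of targets ranged from 2 for MSTRG.10003.1 and MSTRG.22830.1 to 250 for MSTRG.10004.1, all trans, against a median of 10 over all transcripts. MSTRG.10001.1 had 14 targets, MSTRG.10002.1 had 3 and MSTRG.28743.1 had 42. The cis targets of the HERC2P3, WHAMMP1 and UBE2Q2P2 transcripts were Golgin family genes (GOLGA6L6; GOLGA8N and GOLGA8O; GOLGA6L10 and GOLGA6L9), which are spread through the same duplicated blocks of chromosome 15. These are predictions, and the listed genes were not analysed here.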

How the data were processed

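RIP-seq libraries of Input, IgG and Flag-FAK (1 each) were assigned to groups from the sample labels. For 334 lncRNA transcripts the authors deposited FPKM values, whose library total is unknown here, and read counts in whole numbers. The coding potential columns were deposited as a score (CPC, CNCI) or a fraction (CPAT). The 7007 lines repeat a transcript once per predicted target, and each transcript was read once. The submitters' processing notes name StringTie and GRCh38; aligner and counting tool are not given in the sources used here.

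Ratios used FPKM with a pseudocount of 0.1 and, where transcripts were counted, 0.5 FPKM in either library as the minimum. For intervals, exact 95% Clopper-Pearson limits of the reads were multiplied by the FPKM per read of the first library over that of the second: the transcript's own where both had at least 5 reads, otherwise a median (0.974 for Flag-FAK over IgG, 26 transcripts; 1.04 for Flag-FAK over Input, 34; 1.08 for IgG over Input, 64). A count of 0 was taken to allow 3 reads. Single reads carry uneven FPKM: 1 read of MSTRG.10002.1 was worth 0.281 FPKM in IgG and 0.368 in Input. All 9 members were named with their values, together with listed transcripts on their RefSeq genes or within 100 kb. Other transcripts on RefSeq pseudogenes were given as counts, with the 3 that had most reads named. The transcripts on SMG1 copies and on RPL7P9, and MSTRG.19865.1, were named in addition, with their reads known. Members and lists were chosen with earlier results of these data known. Gene positions and types came from RefSeq's GRCh38.p14 annotation, and the primer sequences from the study's supplementary primer list. Alternatives were other pseudocounts, minimum values, scalings and a call by interval. The functions were tested on simulated data. Tables were handled with pandas 2.3.3 and numpy 2.4.6, intervals came from scipy 1.17.1 and plots from matplotlib 3.10.9, under Python 3.11.15.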

Additional observations from a re-analysis of the deposited data

How the results depend on the processing

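No paired analysis was possible because the groups hold a lone library each. Counts over all transcripts stand in parentheses, above then below. Between Flag-FAK and IgG, 2 members were above and 2 below (19 and 104). These became 2 and 1 with pseudocount 1 (17 and 85) or a minimum of 1 FPKM (18 and 92). Without a minimum they became 3 and 3 (29 and 126). When the interval had to lie beyond the fold they became 0 and 1 (4 and 42). Between Flag-FAK and Input, 1 above and 7 below (16 and 278) became 3 and 6 with TPM (36 and 240), 2 and 6 with TPM totals outside the ribosomal DNA and 7SK transcripts (31 and 243), and 0 and 2 by interval (7 and 170). Between IgG and Input, 0 were above and 7 below (43 and 253). These became 2 and 5 with TPM (84 and 192), 1 and 6 with those reduced totals (63 and 214), and 0 and 3 by interval (14 and 134). With pseudocount 1 (37 and 239) or in unscaled reads plus 1 (39 and 250) they became 0 and 6. For HERC2P3 as a sum, the log2 ratio of Flag-FAK to Input of -0.83 was 2.95 with TPM and 2.34 with the reduced totals. That of IgG to Input, -1.72, was 0.82 with TPM and -0.04 with the reduced totals. The log2 ratio of Flag-FAK to IgG kept its sign, between 0.60 and 2.38. Of 115 values of single members under other pseudocounts and scalings, 110 kept their direction, that of MSTRG.10099.1 in IgG over Input became 0 in unscaled reads, and 4 turned direction, all against Input: MSTRG.22830.1 in Flag-FAK became 1.59 with TPM and 0.98 with the reduced totals, and MSTRG.10003.1 in IgG 1.47 and 0.61. Most of the 115 values set reads against a count of 0, where no pseudocount or scaling can turn the direction. The 110 that kept it are therefore no measure of stability. Calls by interval were made on the FPKM scale only. By construction TPM shifts all log2 ratios before the pseudocount, by 1.19 for Flag-FAK over IgG, 3.81 for Flag-FAK over Input and 2.62 for IgG over Input. Depth limits every value, since no member had more than 13 reads in a library.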

Other observations

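Outside the 9 transcripts, 61 others overlap a RefSeq pseudogene, and 30 of them overlap no other RefSeq gene. Flag-FAK detected 4 of these 30, IgG 14 and Input 24. Reads in Input alone were found for 15 of them, reads in IgG alone for 5 and reads in Flag-FAK alone for 0. Of the 12 that met the minimum between the precipitates, 0 were above 2-fold in Flag-FAK over IgG and 12 below 0.5-fold, where 77.0% of all transcripts counted were below. Most of the 12 had 0 reads in Flag-FAK and met the minimum through IgG alone, so their ratio could fall only below. The split is therefore a description only. The 12 below became 7 with pseudocount 1, 9 with TPM and 2 when the whole interval had to lie below.

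Copies of SMG1, a kinase of nonsense-mediated mRNA decay, gave 5 of the 30 transcripts, all on the minus strand of chromosome 16. The transcript on SMG1P3 had 16 reads and both on SMG1P4 had 16 and 12 reads in Input, with 0 in either precipitate. Those on SMG1P7, in contrast, had 5 and 9 reads in IgG and 0 in Input and Flag-FAK. These copies resemble each other closely, and how reads were divided among them was not tested. The transcript on RPL7P9, a copy of a ribosomal protein gene, had 57 reads in Input and 0 in the precipitates. The highest reads in both precipitates among the 30 were on MSTRG.19865.1 at LOC110467538, a ribosomal RNA pseudogene on chromosome 20, with 1086 in IgG, 345 in Flag-FAK and 0 in Input. Among all 61, most reads fell on MSTRG.20528.1, MSTRG.20527.12 and MSTRG.20528.2 of the ribosomal DNA region on chromosome 21, with 1877684, 144948 and 128978 reads over the 3 libraries.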
